A study of Mus musculus with 2 samples.

Results

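The genes examined are 10 transcription factor genes of hair follicle stem cells: Sox9, Lhx2, Nfib, Nfix, Runx1, Tcf7l1, Tcf7l2, Tbx1, Gata3 and Trp63. They were found by gene symbol, 10 of the 31053 features in the matrices. The members were listed by name and not by their values in these libraries, though with earlier results of these data known. The data are 2 single-cell RNA libraries made with the 10x Chromium 3′ chemistry, version 3. Both are replicates of 1 group: wild-type mice of strain C57BL/6;CD1 at postnatal day 32, in anagen, when hair grows. Skin cells were sorted (FACS) on CD34, a bulge surface protein, and on H2BGFP, a green fluorescent histone that the K14 promoter drives in basal keratinocytes. There is no second genotype or treatment, and nothing says that the libraries came from separate animals, so the spread between them may be technical. Every comparison below is therefore between cells of different state, cycle phase or Cd34 detection within the libraries.

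Hair follicle stem cells rest in the bulge of the outer root sheath and feed the growing follicle during anagen. Their identity is kept by a small set of transcription factors. Sox9 and Lhx2 are needed to maintain the stem cells, Nfib and Nfix hold their enhancers open, and Runx1 promotes their entry into growth. Tcf7l1 and Tcf7l2 bind WNT target genes, as repressors with TLE proteins or as activators with beta-catenin. Tbx1 is known for self-renewal of bulge cells, Gata3 for the inner root sheath lineage and Trp63, which encodes p63, for epithelial identity as a whole.

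Replicate 1 held 6592 barcodes and 52344178 UMIs (unique molecular identifiers, 1 per captured transcript), and replicate 2 held 5080 and 38678103. Barcodes that had 1000 genes or more and no more than 10% mitochondrial UMIs numbered 3918 and 3041, with medians of 9955 and 9797 UMIs, and 3 of them had the same sequence in both libraries. Of these, 3721 and 2852 could be thinned to 5000 UMIs. Keratinocytes by Krt5 and Krt14, or by inner root sheath keratins, made up 3536 and 2734 of the thinned cells. In all, 6 follicle states were gated on short marker lists that contain no member, and are called here by leading genes. Non-cycling cells in replicates 1 and 2 numbered 22 and 178 in the Krt24/Grem1 gate, 177 and 119 in the Gdf10 gate, and 406 and 126 in the Wfdc18/Pthlh gate. They numbered 173 and 181 in the Fgf5/Acta2 gate, 162 and 106 in the Edn2/Dio3 gate, and 33 and 84 in the Krtdap/Sostdc1 gate. The markers came partly from earlier clusters of these same cells. No gate took 56.0% and 52.9% of keratinocytes, and 497 and 338 cells lay near the score threshold. Among the gates, the textbook bulge gene Cd34 was highest in the Krt24/Grem1 gate, with 308 and 421 CPM (UMI counts scaled to a common total, the usual counts-per-million unit). Krt15 was also highest there, with 17196 and 25722 CPM. Col17a1 reached 836 and 842 CPM there, but also 755 and 708 in the Gdf10 gate and 754 and 541 in the Krtdap/Sostdc1 gate. The bulge gene Lgr5 went the other way, with 69.7 and 117 CPM in the Krt24/Grem1 gate against 154 and 172 in the Edn2/Dio3 gate. Only the Wfdc18/Pthlh gate had less Lgr5, 20.6 and 39.8 CPM. In the 6 gates the fibroblast list summed to 3.30 to 15.6 CPM and the immune list to 0 to 5.36 CPM.

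Transcripts of all 10 genes were detected in keratinocytes of both libraries. After thinning, a cell had at least 1 UMI of 5.67 of the 10 genes on average in replicate 1 and of 5.64 in replicate 2. Fibroblasts had 2.75 and 2.09, and immune cells 1.22 and 0.933, at median depths of 13609 and 16492.5 UMIs for fibroblasts against 10178.5 and 10009 for keratinocytes. Lhx2 was detected in 54.9% and 58.7% of keratinocytes, in 6.56% and 6.52% of fibroblasts, and in 0 of 9 and 0 of 15 immune cells, which allows shares of up to 33.3% and 20%. Sox9 was detected in 82.6% and 67.8% of keratinocytes, 19.7% and 8.70% of fibroblasts, and 22.2% and 13.3% of immune cells. Keratinocytes thus stood above the other cells for both genes, although the intervals of the few immune cells were wide. Trp63 was detected in 71.5% and 63% of keratinocytes and 14.8% and 2.17% of fibroblasts. Tbx1 was found in 54.3% and 58.9% against 6.56% and 0%, and Gata3 in 38.0% and 29.6% against 1.64% and 0%. For a count of 0 in the 46 thinned fibroblasts of replicate 2, a limit of 3 counts allows a share of up to 6.52%, and the exact interval reaches 7.71%. Without thinning, those cells held 2 UMIs of Tbx1 and 6 of Gata3. Nfix, Tcf7l2 and Tcf7l1 did not set keratinocytes apart from fibroblasts in both libraries. Nfix was detected in 65.8% and 77.6% of keratinocytes and 80.3% and 80.4% of fibroblasts, and Tcf7l2 in 40.5% and 43.3% against 34.4% and 32.6%. Tcf7l1 was detected in 20.4% and 17.9% of keratinocytes and 21.3% and 10.9% of fibroblasts. Immune cells had lower observed shares of all 3, with 22.2% and 20% for Nfix, 11.1% and 0% for Tcf7l2 and 0% and 0% for Tcf7l1. For Tcf7l1, 0 of 9 and 0 of 15 cells allow shares of up to 33.3% and 20%, so a lower share was not shown. Without thinning, the immune cells of replicate 2 held 3 UMIs of Tcf7l1. Runx1, also a blood cell factor, was detected in 44.7% and 50% of keratinocytes, 29.5% and 21.7% of fibroblasts, and 44.4% and 33.3% of immune cells. Nfib was found in 94.5% and 97.1% of keratinocytes and 60.7% and 45.7% of fibroblasts.

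**Figure D1:**
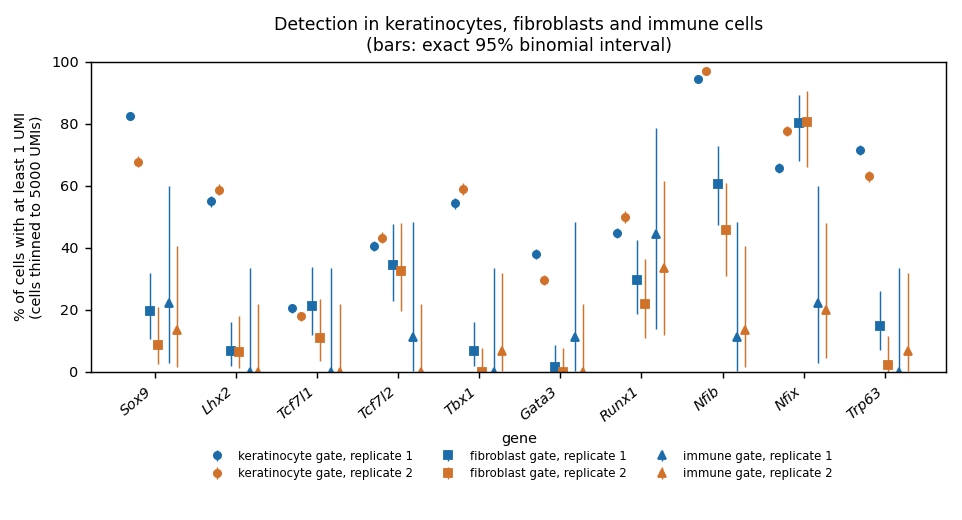
Share of cells with at least 1 UMI after thinning to 5000 UMIs (y axis, %) for each gene (x axis), in keratinocytes, fibroblasts and immune cells of each library; bars are exact 95% binomial intervals, which cover counting error. Sox9, Lhx2, Tbx1, Gata3 and Trp63 lie higher in keratinocytes than in fibroblasts, whereas Nfix lies at 80.3% and 80.4% in fibroblasts.

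Co-detection was described within states. For the 45 pairs of members, the number of non-cycling cells with both genes, divided by the number expected from each state's own detection shares, ran from 0.927 to 1.07 in replicate 1 and from 0.926 to 1.06 in replicate 2. Nfib was detected in nearly all keratinocytes, so the ratios of its 9 pairs can hardly leave 1. The ratios describe sparse counts and were not tested.

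In GENCODE M21 on GRCm38, 8 of the 10 genes overlap another annotated gene, Sox9 and Tbx1 being the exceptions. Whether counting used the strand is not given in the sources used here, so reads of an overlapping partner cannot be told apart. RefSeq promoter windows of 300 bases (GRCm38.p6, from 250 bases before a transcript start to 50 after) were found for 7 members, 14 windows in all, and not for Sox9, Nfib and Trp63. The letters TTCAAAG (TCF/LEF), the full NFI palindrome and CTAATTAG (LIM homeobox), searched on both strands, were in 0 of the 14. They were in 5.14%, 0.0365% and 0.262% of 32851 windows of all genes. ACAATGG (SOX) was in 1 member window and 3.66% of all, TGTGGT (RUNX) in 3 and 16.8%, and the zinc-finger letters AGATAA in 1 and 11.2%. The windows of Lhx2 and Tcf7l1, the genes with the most opposed levels in the Krt24/Grem1 gate below, are shown first, followed by the Nfix window that holds the SOX letters and 30 bases of a Runx1 window that holds the RUNX letters at adjoining positions. Each reads 5′ to 3′ on the gene's strand, and capitals mark the motif letters, here on the reverse strand. The Lhx2, Tcf7l1 and Nfix stretches are the 250 bases before the start.
Lhx2, chr2:38339031-38339280, plus strand: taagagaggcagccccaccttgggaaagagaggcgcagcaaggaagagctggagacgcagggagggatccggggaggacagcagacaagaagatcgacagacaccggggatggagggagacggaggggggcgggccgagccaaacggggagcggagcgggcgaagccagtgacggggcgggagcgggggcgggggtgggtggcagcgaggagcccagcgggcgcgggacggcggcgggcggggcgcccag
Tcf7l1, chr6:72789046-72789295, minus strand: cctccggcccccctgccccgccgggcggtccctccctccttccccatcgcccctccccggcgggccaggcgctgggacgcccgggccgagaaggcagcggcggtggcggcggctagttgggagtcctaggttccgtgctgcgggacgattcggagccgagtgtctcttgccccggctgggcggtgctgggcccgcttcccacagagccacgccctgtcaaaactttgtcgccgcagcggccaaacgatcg
Nfix, chr8:84775829-84776078, minus strand: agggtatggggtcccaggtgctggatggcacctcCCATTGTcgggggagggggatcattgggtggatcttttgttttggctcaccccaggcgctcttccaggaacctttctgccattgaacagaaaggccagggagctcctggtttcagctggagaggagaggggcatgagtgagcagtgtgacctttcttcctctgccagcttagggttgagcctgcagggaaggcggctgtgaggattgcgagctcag
Runx1, chr16:92826025-92826054, minus strand: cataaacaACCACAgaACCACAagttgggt
The Lhx2 and Tcf7l1 stretches are 72.8% and 73.6% G or C, against 58.4% for the Nfix stretch. A match is a description of letters and not a binding site.

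Of the 10 genes, 7 differed among the 6 gated states in non-cycling cells: Sox9, Lhx2, Nfib, Nfix, Runx1, Tcf7l1 and Tbx1. Tcf7l2, Gata3 and Trp63 did not pass. The joint test was edgeR's quasi-likelihood test with p-values adjusted by the Benjamini-Hochberg method over the 9808 genes tested, and it called 48.7% of them. Counted gate by gate against the mean log level of the other 5 gates, 25 of 60 values passed. The 6 values of a gene are not independent, since a high level in 1 gate lowers the values of the others. In the Krt24/Grem1 gate 3 members were higher and 1 lower, beside 11.0% and 11.1% of all genes. In the Gdf10 gate 5 were higher and 0 lower, beside 14.9% and 3.82%. In the Wfdc18/Pthlh gate 1 was higher and 4 lower, beside 15.8% and 11.5%, and in the Fgf5/Acta2 gate 2 were higher and 3 lower, beside 15.4% and 13.7%. The Edn2/Dio3 gate had 0 higher and 3 lower, beside 9.99% and 7.31%, and the Krtdap/Sostdc1 gate 3 higher and 0 lower, beside 4.94% and 3.38%. All 10 members passed the edgeR filter on low counts. The median log2 difference of the 10 ran from -0.25 in the Fgf5/Acta2 gate to 0.21 in the Krt24/Grem1 gate, while that of all genes stayed between -0.00 and 0.04. Without a term for the library, 16 of the 60 values passed.

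**Figure D2:**
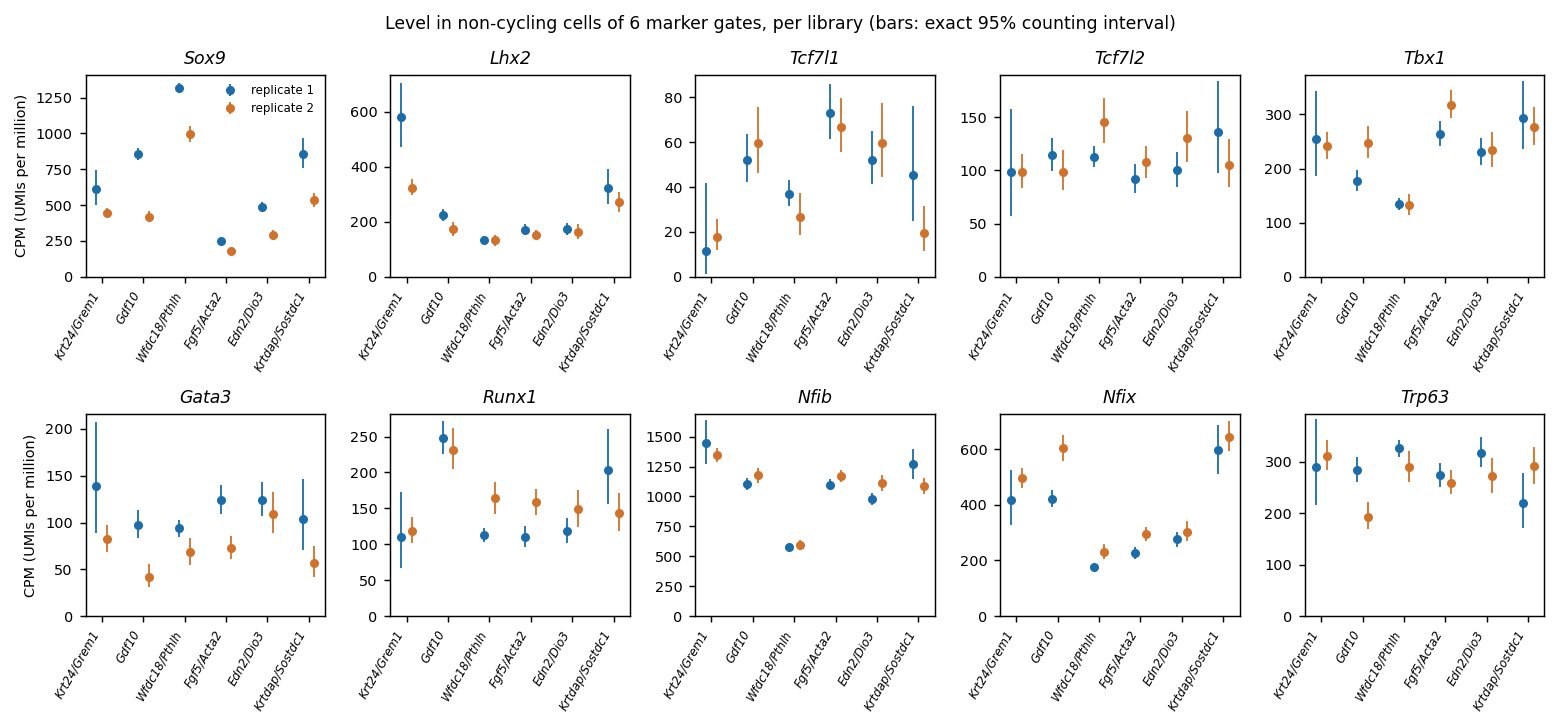
Level of each gene in CPM (y axis, linear from 0) in non-cycling cells of the 6 gates (x axis), 1 point per library with its exact 95% counting interval. Sox9 is highest in the Wfdc18/Pthlh gate at 1318 and 995 CPM, where Nfib is lowest at 579.9 and 595 CPM, and Lhx2 is highest in the Krt24/Grem1 gate.

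Sox9 (chromosome 11, 112782224 to 112787760, plus strand) encodes an HMG-box factor that the stem cells need. In the Wfdc18/Pthlh gate its level was 1318 CPM in replicate 1 and 995 in replicate 2, and 247 and 182 CPM in the Fgf5/Acta2 gate. The mean of the highest gate was 5.38 times that of the lowest, and the top and the bottom gate did not overlap with any other. Between them lay the Krtdap/Sostdc1 gate with 857 and 532 CPM, the Gdf10 gate with 857 and 419, the Krt24/Grem1 gate with 615 and 448 and the Edn2/Dio3 gate with 484 and 292. These 4 overlapped their neighbours in that order. Replicate 1 was higher in 6 of 6 gates, by 1.32 to 2.04 times. Sox9 was higher in the Wfdc18/Pthlh gate by log2 1.40 ± 0.10 (SE) and fell by 1.68 ± 0.12 on the log2 scale in the Fgf5/Acta2 gate. In edgeR's two-sided quasi-likelihood test, adjusted p was 1.24e-10 and 1.89e-10, with the same direction in each library. The gain in the Gdf10 gate (log2 0.40 ± 0.10), the gain in the Krtdap/Sostdc1 gate (0.42 ± 0.11) and the decrease in the Edn2/Dio3 gate (-0.63 ± 0.12) passed too, with adjusted p = 0.00859, 0.0184 and 0.00032 in edgeR. None of these 3 passed without the library term or, for the Edn2/Dio3 and Krtdap/Sostdc1 gates, with gates drawn at 3000 UMIs (log2 -0.33 and 0.09). The Krtdap/Sostdc1 value also missed with thinned counts (0.33), and the Gdf10 value was 0.12 in replicate 2 alone and 0.64 in replicate 1 alone.

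Lhx2 (chromosome 2, 38339281 to 38369733, plus strand), a LIM-homeobox factor of bulge cells, had its highest level in the Krt24/Grem1 gate, 581 CPM in replicate 1 and 324 CPM in replicate 2. The Krtdap/Sostdc1 gate followed with 324 and 270 CPM, and the Gdf10 gate with 225 and 172. The Edn2/Dio3 gate had 173 and 163 CPM, the Fgf5/Acta2 gate 171 and 152, and the Wfdc18/Pthlh gate 136 and 132. The Krtdap/Sostdc1 gate stood apart from the gates below it, the Krt24/Grem1 gate in replicate 2 was level with the Krtdap/Sostdc1 gate in replicate 1, and the Wfdc18/Pthlh gate lay below all others in both libraries. Lhx2 was higher by log2 1.21 ± 0.13 (SE) in the Krt24/Grem1 gate, with adjusted p = 3.91e-07 by edgeR's quasi-likelihood test. It was higher by 0.56 ± 0.14 in the Krtdap/Sostdc1 gate and lower in the Wfdc18/Pthlh (-0.76 ± 0.13), Fgf5/Acta2 (-0.58 ± 0.13) and Edn2/Dio3 gates (-0.47 ± 0.14). Here edgeR gave adjusted p = 0.0115, 0.000105, 0.00127 and 0.0186. The Krtdap/Sostdc1 and Edn2/Dio3 values did not pass without the library term (adjusted p = 0.122 and 0.138 in edgeR) or with gates drawn at 3000 UMIs. The Edn2/Dio3 value also missed with a stricter gate, with thinned counts and without the Krtdap/Sostdc1 gate. Replicate 1 contributed 22 cells to the Krt24/Grem1 gate, and its level there has a counting interval of 472 to 706 CPM.

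Nfib (chromosome 4, 82290173 to 82705750, minus strand) and Nfix (chromosome 8, 84699876 to 84800344, minus strand) encode nuclear factor I proteins that act together at stem cell enhancers. Nfib was lowest in the Wfdc18/Pthlh gate, with 579.9 and 595 CPM, and highest in the Krt24/Grem1 gate, with 1446 and 1349 CPM. The other 4 gates lay between 979 and 1268 CPM and overlapped in part. Nfix was also lowest in the Wfdc18/Pthlh gate, with 178 and 230.5 CPM, which overlapped the Fgf5/Acta2 gate, but highest in the Krtdap/Sostdc1 gate, with 595 and 644 CPM. The Gdf10 gate had 422 and 603 CPM of Nfix and the Krt24/Grem1 gate 418 and 497. The Edn2/Dio3 and Fgf5/Acta2 gates, with 227 to 303 CPM, lay below those 3 in both libraries. Replicate 2 had more Nfix in 6 of 6 gates. In the Wfdc18/Pthlh gate both genes fell by 0.95 on the log2 scale, with SE 0.09 for Nfib and 0.11 for Nfix and adjusted p = 1.33e-08 and 2.12e-07 by edgeR's quasi-likelihood test. Both were higher in the Krt24/Grem1 gate, Nfib by log2 0.55 ± 0.08 and Nfix by 0.45 ± 0.11, and in the Gdf10 gate, by 0.28 ± 0.08 and 0.72 ± 0.09. Nfix was higher by 0.91 ± 0.10 in the Krtdap/Sostdc1 gate and lower in the Fgf5/Acta2 (-0.69 ± 0.10) and Edn2/Dio3 gates (-0.44 ± 0.10), where Nfib did not pass (0.17 ± 0.08, 0.02 ± 0.08 and -0.07 ± 0.08). Without the library term, the Gdf10 value of Nfib and the Krt24/Grem1 and Edn2/Dio3 values of Nfix did not pass (adjusted p = 0.107, 0.0746 and 0.126 in edgeR). The Edn2/Dio3 value of Nfix also missed with gates drawn at 3000 UMIs and without the Krtdap/Sostdc1 gate.

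Runx1 (chromosome 16, 92601466 to 92826149, minus strand), a runt-domain factor, was highest in the Gdf10 gate with 248 CPM in replicate 1 and 232 CPM in replicate 2. The other 5 gates lay between 109.9 and 204 CPM, and all of them overlapped a neighbour. No other gate reached the Gdf10 gate in either library. The difference was log2 0.98 ± 0.13 (SE), with adjusted p = 6.9e-06 by edgeR's quasi-likelihood test, and none of the other gates passed for Runx1.

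Tcf7l1 (chromosome 6, 72626378 to 72789254, minus strand), a TCF repressor of bulge cells, had its lowest level in the Krt24/Grem1 gate, 11.6 CPM in replicate 1 and 17.9 CPM in replicate 2. The Fgf5/Acta2 gate had the highest, 73.1 and 66.9 CPM. The Edn2/Dio3 gate with 52.3 and 59.5 CPM and the Gdf10 gate with 52.0 and 59.5 CPM overlapped each other and lay above the rest. The Wfdc18/Pthlh gate had 37.0 and 26.8 CPM and the Krtdap/Sostdc1 gate 45.3 and 19.6. Both extremes stood apart from their neighbours, and the gate with the most Lhx2 was the one with the least Tcf7l1. The fitted values were log2 -1.35 ± 0.30 (SE) in the Krt24/Grem1 gate, 0.90 ± 0.16 in the Fgf5/Acta2 gate and 0.75 ± 0.18 in the Gdf10 gate. EdgeR's quasi-likelihood test gave adjusted p = 0.00164, 0.000152 and 0.00546. The first rests on few UMIs in replicate 1, whose level of 11.6 CPM has a counting interval of 1.41 to 41.9, and it was -2.08 in replicate 1 alone. The Edn2/Dio3 value, log2 0.55 ± 0.19, did not pass, but did with no gene filter and with thinned counts (0.56 and 0.80).

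Tcf7l2 (chromosome 19, 55741820 to 55933654, plus strand), its relative, had no gate apart from the others. Its level ran from 91.7 to 145 CPM over all gates and libraries, the means of the highest and lowest gate differed by 1.31 times, and all neighbours in the order overlapped. The joint test in edgeR gave adjusted p = 0.141.

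Tbx1 (chromosome 16, 18580979 to 18590671, minus strand), a T-box factor, had 134 and 132 CPM in the Wfdc18/Pthlh gate, below every other gate in both libraries. It had 264 and 318 CPM in the Fgf5/Acta2 gate, 294 and 277 in the Krtdap/Sostdc1 gate and 178 and 248 in the Gdf10 gate. The Krt24/Grem1 and Edn2/Dio3 gates lay between 231 and 255 CPM. The decrease in the Wfdc18/Pthlh gate was log2 -0.85 ± 0.12 (SE), with adjusted p = 4.68e-06 by edgeR's quasi-likelihood test. The gain in the Fgf5/Acta2 gate, 0.32 ± 0.11 with adjusted p = 0.0254 in edgeR, did not pass without the library term, with thinned counts or with gates drawn at 3000 UMIs, and was 0.21 in replicate 1 alone.

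Gata3 (chromosome 2, 9857078 to 9890034, minus strand), a zinc-finger factor of the inner root sheath, ran from 41.8 to 139 CPM, and Trp63 (chromosome 16, 25683763 to 25892102, plus strand) from 194 to 326 CPM. For both genes, every gate overlapped the next in the order. Gata3 was higher in replicate 1 in 6 of 6 gates, by 1.14 to 2.34 times, a spread between libraries as wide as that between gates. The joint test in edgeR gave adjusted p = 0.101 for Gata3 and 0.251 for Trp63.

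**Figure D3:**
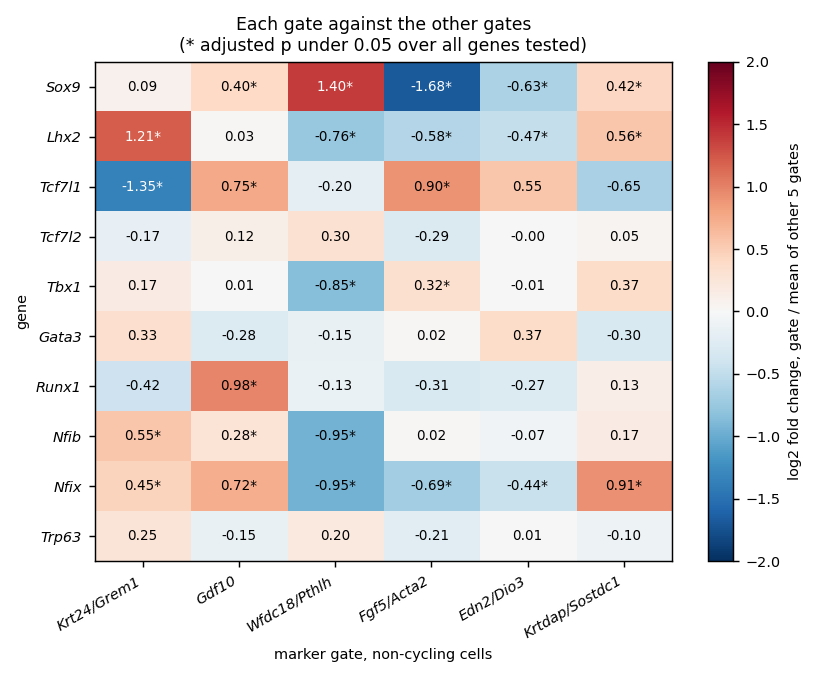
Fitted log2 fold change of each gene (rows) in non-cycling cells of each gate (columns) against the mean log level of the other 5 gates; an asterisk marks an adjusted p under 0.05 in edgeR. The Wfdc18/Pthlh column holds 1.40 for Sox9 beside -0.95 for Nfib and Nfix, and the rows of Tcf7l2, Gata3 and Trp63 hold no asterisk.

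The genes with the most similar patterns were taken over 12 sums (6 gates in 2 libraries, centred within each library), among 5404 genes at 20 CPM or more. Nfix was most like Fzd2, a WNT receptor gene (r = 0.960), and Col17a1, the hemidesmosome collagen gene (r = 0.953). Nfib was most like Ackr4 and Tns4 (0.979 and 0.978), Lhx2 like Klf2 and the ribosomal protein gene Rpl11 (0.958 and 0.945), and Sox9 like the antisense transcript Kcnq1ot1 and Pcnx (0.974 and 0.968). Tcf7l1 was most like Glt8d1 and Cryab (0.960 and 0.953), Tbx1 like Ccni and Gmpr2 (0.935 and 0.917), and Runx1 like Arid4b and Irx1 (0.937 and 0.886). The members without a passed joint test had lower values, with Crot and Fryl for Tcf7l2 (0.878 and 0.868), Safb2 and Mau2 for Trp63 (0.876 and 0.863) and Itpa and Thoc5 for Gata3 (0.814 and 0.798). Among the members, r was 0.85 between Tbx1 and Nfib, 0.75 between Nfib and Nfix and between Lhx2 and each of them, and -0.74 between Lhx2 and Tcf7l1. These values describe 12 sums that share libraries and cells, and the best of many genes is high by selection.

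The states gated on inner root sheath keratins and on upper follicle genes had too few non-cycling cells and were examined with cells of all phases, a step added after the data were seen. This fit was run with the main settings only and was not repeated under the alternatives. The inner root sheath gate held 26 and 21 cells, 13 of them in G2/M in each library, and the upper follicle gate 20 and 34. Cells could count as keratinocytes by inner root sheath keratins alone, without Krt5 or Krt14, and the part of this rule in the result was not tested. In the inner root sheath gate Sox9 had 136 CPM in replicate 1 and 68.7 in replicate 2, Tbx1 60.9 and 68.7, and Trp63 137 and 73.7. All keratinocytes together, also summed over all phases, had 762 and 384 CPM of Sox9, 195 and 210 of Tbx1, and 288 and 223 of Trp63. Each of the 3 was lower in the gate than in keratinocytes as a whole, in both libraries. The mix of phases was not the same, since 21.5% and 20.7% of all keratinocytes were in G2/M, nor was the median depth, 20855 and 17885 UMIs in the gate against 10178.5 and 10009; the part of either in the result was not tested. Against the mean of the 6 other gates, Sox9 fell by 2.32 ± 0.18 (SE) on the log2 scale, Tbx1 by 1.79 ± 0.18, Trp63 by 1.28 ± 0.18, Tcf7l1 by 1.06 ± 0.36, Nfib by 0.96 ± 0.13, Nfix by 0.85 ± 0.14 and Tcf7l2 by 0.62 ± 0.20. In this gate 7 members were lower and 0 higher, beside 8.82% and 10.5% of 11189 genes, with adjusted p from 1.07e-08 for Sox9 to 0.0421 for Tcf7l1 in edgeR. The Tcf7l1 value rests on 13 and 5 UMIs in this gate, with 1 thinned cell detected in each library. Gata3, the inner root sheath factor, had 155 and 81.0 CPM there against 114 and 78.2 in all keratinocytes (log2 0.36 ± 0.19, adjusted p = 0.211 in edgeR), and neither Runx1 (0.28 ± 0.16) nor Lhx2 (-0.33 ± 0.18) passed. The fibroblast list summed to 216 and 302 CPM in this gate with 2 of 6 genes seen and Col1a2, Col3a1 and Pdgfra at 0 in both libraries; its part in the result was not tested. The gate keratins summed to 11288 CPM in replicate 1 and 1564 in replicate 2.

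In the upper follicle gate Tbx1 had 78.5 and 58.6 CPM and Lhx2 138 and 90.6 CPM. Tbx1 fell by 1.71 ± 0.18 (SE) on the log2 scale, Lhx2 by 0.92 ± 0.20, Trp63 by 0.57 ± 0.16 and Nfib by 0.53 ± 0.12. In edgeR adjusted p was 7.44e-07, 0.00456, 0.034 and 0.0075. Here 4 members were lower and 0 higher, beside 2.40% and 5.57% of all genes. Sox9 kept 747 and 457 CPM (log2 0.28 ± 0.13) and Nfix 377 and 368 CPM (0.11 ± 0.13), neither of which passed. Sebaceous gland genes summed to 738 and 844 CPM in this gate with 3 of 4 genes seen and Mc5r at 0, against 37.9 to 811 CPM in the 6 gates over all phases; their part was not tested.

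**Figure D4:**
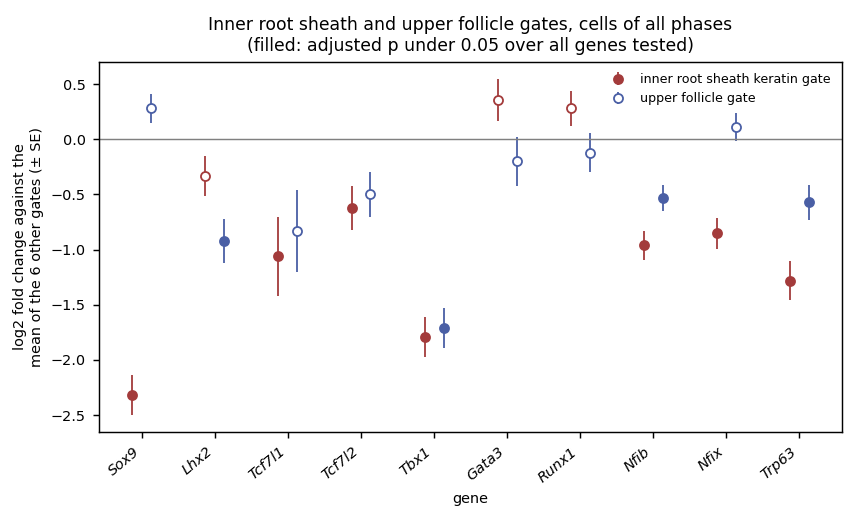
Fitted log2 fold change ± SE of each gene (x axis) in the inner root sheath keratin gate and the upper follicle gate, cells of all phases, against the mean of the 6 other gates; filled points passed in edgeR. Sox9 lies at -2.32 in the inner root sheath gate and at 0.28 in the upper follicle gate, and Tbx1 at -1.79 and -1.71.

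Cycling cells were compared with non-cycling cells of the same gates. Sums under 20 cells were left out of the fits. The Krt24/Grem1 gate had 0 and 14 cells in G2/M and 1 and 15 in S phase. The Gdf10 gate had 12 and 3, and 3 and 2, so no cycling sum of either gate entered. In S phase 1 library alone gave a sum for Wfdc18/Pthlh (45 and 13 cells), Fgf5/Acta2 (13 and 21) and Krtdap/Sostdc1 (4 and 31). In G2/M this held for Krtdap/Sostdc1 (14 and 73). By marker genes, 761 and 566 keratinocytes were in G2/M, 299 and 267 in S phase and 2036 and 1545 non-cycling, with median depths of 12666 and 14796.5 UMIs in G2/M against 9309 and 8965. Trp63 had 251 and 170 CPM in G2/M cells against 308 and 253 in non-cycling cells, and Sox9 677 and 297 against 794 and 440. Both genes were lower in G2/M cells in each library. Runx1 had 138 and 139 CPM against 147 and 166, and Nfib 885 and 870.5 against 878 and 1036, so that Nfib was not lower in replicate 1. With gate and library as terms, Sox9 fell by 0.45 ± 0.10 (SE) on the log2 scale, Trp63 by 0.40 ± 0.09, Runx1 by 0.31 ± 0.09 and Nfib by 0.15 ± 0.06. In edgeR adjusted p was 0.000464, 0.000299, 0.00782 and 0.0272, and 22.6% of 10994 genes were lower. Lhx2 was higher by 0.27 ± 0.10, with 206 and 265 CPM against 172 and 184 and adjusted p = 0.0279 in edgeR, beside 16.8% of genes. Among these, the Trp63 value passed under every alternative with a test. The Lhx2 value turned to -0.09 without the gate term and missed with stricter gates, thinned counts or no library term. The Sox9 value missed without the library or the gate term and was -0.18 in replicate 1 alone, where Runx1 was -0.13 and Nfib -0.03. Runx1 also missed with thinned counts and was -0.51 without the gate term, Nfib was -0.23 with thinned counts, and Nfib missed without the library or the gate term or with gates drawn at 3000 UMIs. Tcf7l1, Tcf7l2, Tbx1, Gata3 and Nfix did not pass, with values from -0.18 to 0.02.

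In S phase no member was higher and 4 were lower, beside 9.30% and 8.21% of genes. Runx1 had 106 and 138 CPM against 147 and 166 in non-cycling cells, and Nfib 777 and 884 against 878 and 1036. Tbx1 had 164 and 196 CPM against 189.8 and 222, and Tcf7l1 42.7 and 27.9 against 46.5 and 46.9. All 4 were lower in each library. The fitted values were log2 -0.40 ± 0.11 (SE) for Runx1, -0.27 ± 0.06 for Nfib, -0.27 ± 0.09 for Tbx1 and -0.44 ± 0.15 for Tcf7l1. EdgeR's quasi-likelihood test gave adjusted p = 0.0111, 0.00124, 0.0266 and 0.0351. Each missed without the gate term, each but Runx1 with gates drawn at 3000 UMIs, Tbx1 and Tcf7l1 without the library term or with stricter gates, Runx1 and Tcf7l1 with thinned counts and Tbx1 in DESeq2. Tcf7l1 was -0.12 in replicate 1 alone and -0.75 in replicate 2 alone, and Nfib was -0.17 in replicate 1 alone.

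**Figure D5:**
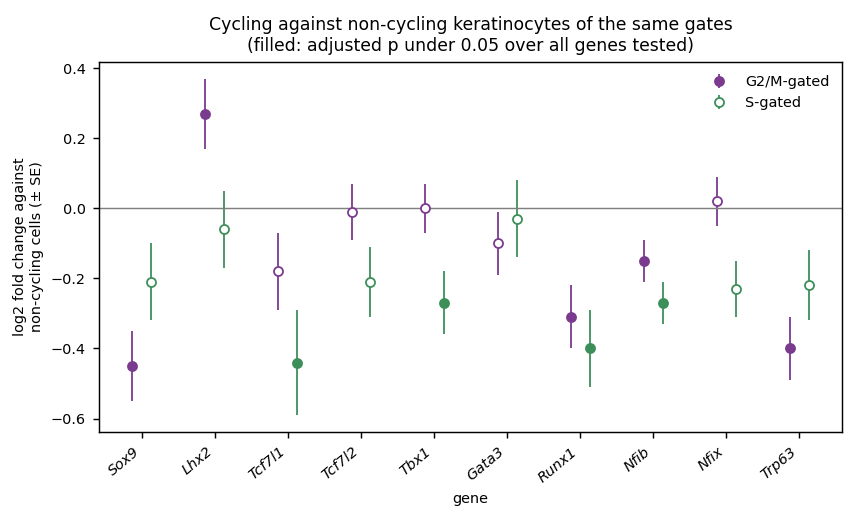
Fitted log2 fold change ± SE of each gene (x axis) in G2/M-gated and S-gated keratinocytes against non-cycling cells, with gate and library as terms; filled points passed in edgeR. In G2/M, Sox9 and Trp63 lie lowest, at -0.45 and -0.40, and Lhx2 highest, at 0.27.

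Whether the G2/M difference varied between gates was tested in 3 gates and in ungated cells, those with 20 cells or more in every sum, a test added after the data were seen. No member passed, 0.0993% of 10073 genes did, and 1 member, Trp63, had an unadjusted p under 0.05. Trp63 was lower by log2 -0.62 ± 0.14 (SE) in the Wfdc18/Pthlh gate and -0.52 ± 0.12 in ungated cells, and had values of -0.18 ± 0.14 in the Fgf5/Acta2 gate and -0.06 ± 0.15 in the Edn2/Dio3 gate. The interaction had adjusted p = 0.727 in edgeR, so these values were not shown to differ.

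Cd34, which encodes the sorted surface marker, was detected in 596 and 562 non-cycling keratinocytes after thinning and not in 1440 and 983. Sox9 had 582 and 395 CPM in cells with Cd34 against 877 and 463 in those without. Nfib had 1003 and 1173 CPM against 829 and 966, and Lhx2 178 and 214 against 169.6 and 168.6. With gate and library as terms the values were log2 -0.15 ± 0.09 (SE) for Sox9, 0.03 ± 0.05 for Nfib and -0.05 ± 0.07 for Lhx2. Of the 10 members, 0 passed in edgeR's quasi-likelihood test, beside 1.60% of 9124 genes, 0 had an unadjusted p under 0.05, and 0 passed in DESeq2. All 10 values lay between -0.15 and 0.10. At an unadjusted p under 0.05, 1162 genes were found, and DESeq2 called 45. A test of whether the difference varied between states, added after the data were seen, called 0 members and 0.0503% of 7950 genes. Sox9 had an unadjusted p of 0.00366 and Nfib of 0.0122 in it, with adjusted p = 0.679 and 0.862 in edgeR. The Sox9 values by state were log2 -0.34 ± 0.13 (SE) in ungated cells, -0.26 ± 0.14 in the Gdf10 gate, 0.06 ± 0.16 in the Edn2/Dio3 gate and 0.47 ± 0.17 in the Fgf5/Acta2 gate. Those of Nfib were 0.23 ± 0.08, -0.16 ± 0.09, 0.01 ± 0.09 and -0.10 ± 0.08 in the same order. Neither gene was shown to differ between states after adjustment.

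The family and cofactor list held 29 genes related to the members, of which 23 were tested in the gates, 25 in the cycling comparisons and 21 in that by Cd34. In the Krt24/Grem1 gate 8 were higher and 3 lower, beside 11.0% and 11.1% of all genes, and in the Fgf5/Acta2 gate 5 higher and 10 lower, beside 15.4% and 13.7%, with medians of 0.42 and -0.50 against -0.00 and 0.01 for all genes. Sox4, a relative of Sox9, was lowest in the Krt24/Grem1 gate, with 209 and 173 CPM against 281 to 810 in the other gates (log2 -1.57 ± 0.14, SE; adjusted p = 1.14e-08 in edgeR). Sox9 did not pass in that gate. Lmo4 had 110 and 155 CPM in the Krt24/Grem1 gate and 546 and 528 in the Edn2/Dio3 gate, and Lmo1 453 and 327 against 57.6 and 79.3. The LIM-only genes Lmo4 and Lmo1 were thus ordered oppositely over these 2 gates, a contrast that was not tested. Ctnnb1, the gene of beta-catenin, was highest in the Wfdc18/Pthlh gate with 501 and 488 CPM (log2 0.93 ± 0.10; adjusted p = 8.76e-08 in edgeR). Lef1 and Tcf7, the other TCF genes, named after their values were seen, were near the detection limit, Lef1 with 0 to 4 UMIs per gate and library and Tcf7 with 0 to 14. The counts in the other gates were 4 higher and 1 lower in the Gdf10 gate (14.9% and 3.82% of all genes) and 4 and 5 in the Wfdc18/Pthlh gate (15.8% and 11.5%). They were 4 and 4 in the Edn2/Dio3 gate (9.99% and 7.31%) and 4 and 1 in the Krtdap/Sostdc1 gate (4.94% and 3.38%).

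Of 29 other follicle and epidermal transcription factors, 26 were tested in the gates and the cycling comparisons and 24 in that by Cd34. In the Wfdc18/Pthlh gate 10 were higher and 6 lower, beside 15.8% and 11.5% of all genes. Foxn1, the nude gene, had 10.9 and 12.3 CPM there and 0 to 3.24 CPM in the other 5 gates, and Grhl3, a barrier factor, 12.8 and 14.5 against 0 to 3.35. In the Krt24/Grem1 gate 7 were higher and 4 lower, beside 11.0% and 11.1%. Nfatc1, a quiescence factor, had 232 and 153 CPM there and Foxc1, another, 145 and 84.0, while in the Fgf5/Acta2 gate each had 2 UMIs or fewer in a library. Cux1, a homeobox factor, had 262 and 343 CPM in the Fgf5/Acta2 gate and 0 to 37.5 CPM in the other gates. In that gate 10 were higher and 9 lower, beside 15.4% and 13.7%. Counts were 8 and 1 in the Gdf10 gate (14.9% and 3.82%), 6 and 7 in the Edn2/Dio3 gate (9.99% and 7.31%) and 6 and 5 in the Krtdap/Sostdc1 gate (4.94% and 3.38%).

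Genes that p63 is known to activate differed between gates although Trp63 did not pass. Of 15 genes, 9 were higher and 1 lower in the Gdf10 gate, beside 14.9% and 3.82% of all genes. They were 7 and 8 in the Wfdc18/Pthlh gate (15.8% and 11.5%) and 3 and 10 in the Fgf5/Acta2 gate (15.4% and 13.7%). Col17a1 had 15.7 and 24.5 CPM in the Wfdc18/Pthlh gate against 755 and 708 in the Gdf10 gate, and Krt14 was at 9510 and 9294 CPM in the first and 9365 and 8656 in the second. The list therefore did not move as one in the Wfdc18/Pthlh gate. In the other gates the counts were 7 and 4 (Krt24/Grem1, 11.0% and 11.1%), 5 and 6 (Edn2/Dio3, 9.99% and 7.31%) and 7 and 2 (Krtdap/Sostdc1, 4.94% and 3.38%). In G2/M cells 11 of the 15 were lower and 0 higher, beside 22.6% and 16.8% of all genes, with a median of -0.35 against -0.09 for all genes. Col17a1 fell by 0.90 ± 0.13 (SE) on the log2 scale and Dst by 0.74 ± 0.08. In S phase 7 were lower and 0 higher, beside 8.21% and 9.30% of all genes, and in cells with Cd34 1, Krt14, was lower, where 1.60% of genes passed in either direction. In the same 3 comparisons, beside the same shares of all genes, the other factors had 12 lower and 0 higher in G2/M, 7 and 0 in S phase and 4 and 0 with Cd34. The family list had 4 lower and 2 higher, 1 and 2, and 0 and 0.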

How the data were processed

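The data are UMI counts per gene and barcode, deposited by the authors as 1 matrix per library. Per the submitters' processing notes, Cell Ranger 3.1.0 and Seurat 3.1 were used with the mm10 build; the sources used here do not give the gene models or the strand setting. The members and gene lists were chosen with earlier results of these data known, and gate markers came partly from earlier clusters of these cells.

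Kept barcodes had 1000 genes or more and no more than 10% mitochondrial UMIs, and were thinned to 5000 UMIs (seed 1) for gates and detection shares. A keratinocyte had at least 5 UMIs of Krt5 and Krt14 together, or at least 5 of the inner root sheath keratins. It also had fewer than 5 UMIs of the markers of each other cell type. A state was assigned where its mean z-score was at least 0.75, at least 0.5 above the next, with 2 list genes detected. G2/M cells had at least 4 of 12 markers, and S cells at least 4 of 12 with at most 2 G2/M markers. Non-cycling cells had at most 1 G2/M and 2 S markers. Python 3.11.15, numpy 2.4.6 and scipy 1.17.1 were used. Scrublet in scanpy 1.11.5 made 0 automatic calls, so likely doublets stayed in; leaving out the highest scores, 216 and 131 kept cells at 0.8% per 1000 barcodes, was an alternative.

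Raw counts were summed per gate and library (20 cells or more) and tested with edgeR 4.0.16 in R 4.3.3: quasi-likelihood, TMM, filterByExpr, library as a term, two-sided, Benjamini-Hochberg over all genes tested, threshold 0.05. The code was tested on simulated data. States of 1 library share it, so the library pairs the sums. DESeq2 1.42.0, no library term, other gates, thinned counts, other depths and single libraries were alternatives. CPM intervals are exact Poisson and shares exact binomial, at 95%, and cover counting error only; a count of 0 allows 3 counts. Genes other than members were named by rule: the 2 most similar to each member, and the 2 highest and 2 lowest passing genes of each list and comparison. With 2 libraries, p-values measure only the spread between these sums, and fewer cells and less RNA per cell cannot be told apart in them.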

Additional observations from a re-analysis of the deposited data

How the results depend on the processing

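The joint test called 7 members under every alternative with a test. Without the replicate block (no library term) the gate values that passed fell from 25 to 16 and the cycling values from 9 to 4. The cycling values that passed numbered 5 with gates drawn at the other thinning depth and 2 without a state term, where Lhx2 in G2/M turned to -0.09. The causes were not tested. Members called by Cd34 stayed at 0 in each. Of the 34 gate and cycling values that passed, 34 did so again in the same direction with likely doublets left out or a looser gate. The same held with no gene filter. In DESeq2 33 passed again, with stricter gates 30, with thinned counts 27 and at the other depth 24. The rest kept their direction in these settings but missed the threshold. The inner root sheath and upper follicle values were not rerun. Of the values that had not passed, 4 passed with no gene filter. They were Tcf7l1 in the Edn2/Dio3 gate and Sox9, Nfix and Trp63 in S phase, all 3 lower. With thinned counts 2 passed (Tcf7l1 in the Edn2/Dio3 gate and Nfix in S phase). Stricter gates added 1 (Sox9 in S phase). Leaving out the Krtdap/Sostdc1 gate added 1 (Tcf7l2 in the Wfdc18/Pthlh gate). Over all genes, counts moved by more than 1.5 times as follows. Without the block they went from 1833 to 977 (Gdf10), 2676 to 1764 (Wfdc18/Pthlh), 2857 to 1858 (Fgf5/Acta2), 1697 to 941 (Edn2/Dio3), 817 to 450 (Krtdap/Sostdc1), 1925 to 1252 (S) and 146 to 14 (Cd34). With thinned counts they were 1196 (Gdf10), 502 (Krtdap/Sostdc1), 1162 (S) and 87 (Cd34). Without a state term they were 2533 of 4333 (G2/M), 1158 (S) and 1 (Cd34). The Cd34 count was 332 with no filter, 45 in DESeq2 and 43 at the other depth. Single libraries gave values without a test. The Krt24/Grem1 gate rests on 22 cells in replicate 1, which limits Tcf7l1 there most.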
